A study of Mus musculus with 3 samples.

Results

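The 39 genes described here encode the proteins that a stratified squamous epithelium makes as its cells leave the basal layer, together with the desmosome proteins that hold those cells to each other. They were taken by symbol from a fixed list, and all 39 were among the 32287 features of a single matrix of unique molecular identifiers (UMIs, each standing for 1 captured RNA molecule). The cells were PC cells, a mouse esophageal organoid culture from Trp53 floxed/floxed mice in which Trp53 was removed with Ad-Cre-EGFP and Cdkn2a was then knocked out by CRISPR/Cas9. They expressed Cas9 constitutively, received a barcode library by lipofection, and were sorted as live RFP-positive cells. Before that they had been grown as dissociated cells in DMEM with FBS, at first with Y-27632 and later without it, so no air-exposed or layered tissue was sampled. The labels name 3 libraries of this 1 culture (gene expression, barcodes and scar), each with 1 replicate, and neither a wild-type group nor the PCN culture with Notch1 targeted was analysed here. Every value below therefore describes 1 sample, without a test between conditions, and intervals cover counting error only.

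In the esophagus, basal cells with the keratins Krt5 and Krt14 divide next to the basement membrane. Their daughters move upwards, switch to Krt4 and Krt13 (in epidermis Krt1 and Krt10), and build a cornified envelope in which transglutaminases crosslink involucrin, small proline-rich (Sprr) proteins and other precursors. Desmosomes join the cells throughout: cadherins of the Dsg and Dsc families span the gap, and plakoglobin, plakophilins and desmoplakin tie them to the keratin filaments. Krt6a, Krt6b and Krt16 are best known as keratins of wounded and hyperproliferative squamous epithelium.

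Of the 18116 barcodes, 14925 passed minimums of 500 genes and 1000 UMIs and a 20% limit on mitochondrial UMIs. They held 45443280 UMIs, a median of 2955 per cell. Levels are given in CPM, the UMIs of a gene per 1000000 UMIs of the cells named, with an exact Poisson 95% interval. Reads came from the 3′ end, so levels were not divided by gene length. Shares of cells were taken after each cell was thinned to 1500 UMIs, which 13281 cells reached. Cells were grouped into 10 clusters with the 39 genes and 121 related genes held out of the clustering. Cluster 4 (1960 cells) was mesenchymal-like: 10 of 12 mesenchymal markers were raised, Vim had a UMI in 90.7% of its cells and Epcam in 11.3%. Cluster 3 (2123 cells) was cycling-like and cluster 9 (96 cells) interferon-responding-like, and the other clusters stay unnamed. Epcam had a UMI in 84.6% to 100% of cells in the 8 clusters counted as epithelial, in which Krt5 stood at 744 CPM and Krt14 at 1335 CPM. Cluster 7 (673 cells) had a median of 1195 UMIs, 10.2% mitochondrial UMIs and Epcam in 22.3% of cells, and was placed on neither side. Of 8 immune and 8 endothelial markers, 4 or more had 0 UMIs in every cluster, and their summed levels reached at most 19.7 and 21.8 CPM. Transcripts of both targeted genes were counted, Trp53 at 46.8 CPM and Cdkn2a at 640 CPM. The sequence removed or edited is not given in the sources used here, and a 3′ count outside it does not check a knockout, so the genotype rests on the labels.

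The sequences upstream of Sprr1a, Sprr1b and Krt13 are shown because the first pair are neighbouring, related genes that parted between clusters, while Krt13 lay mostly in few cells. Each is the 250 bases before the RefSeq start in GRCm38.p6, 5′ to 3′ on the minus strand of the gene, with capitals at matches to the AP-1 motif TGANTCA (both strands) and the TATA box TATAAA (gene strand).
Sprr1a, chr3:92485882-92486131: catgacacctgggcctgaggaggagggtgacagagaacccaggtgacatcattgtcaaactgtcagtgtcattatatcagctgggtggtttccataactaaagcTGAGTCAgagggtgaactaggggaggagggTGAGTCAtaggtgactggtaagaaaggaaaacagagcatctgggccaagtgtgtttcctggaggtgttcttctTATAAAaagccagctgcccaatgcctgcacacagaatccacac
Sprr1b, chr3:92438780-92439029: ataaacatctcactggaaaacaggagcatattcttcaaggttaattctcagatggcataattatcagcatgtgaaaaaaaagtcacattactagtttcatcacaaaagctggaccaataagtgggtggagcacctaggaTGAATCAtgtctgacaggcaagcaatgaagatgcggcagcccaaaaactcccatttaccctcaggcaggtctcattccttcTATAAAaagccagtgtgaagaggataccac
Krt13, the first of its 2 listed starts, chr11:100121567-100121816: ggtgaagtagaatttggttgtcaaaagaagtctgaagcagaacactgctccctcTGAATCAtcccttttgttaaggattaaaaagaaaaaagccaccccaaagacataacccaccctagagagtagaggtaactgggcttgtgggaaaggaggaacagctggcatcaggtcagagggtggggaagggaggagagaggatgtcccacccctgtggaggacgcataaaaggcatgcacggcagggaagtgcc

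The Sprr1a sequence held 2 AP-1 matches, 146 and 116 bases before the start, and the Sprr1b sequence 1, at 111 bases. Both had a TATA box, at 43 and 30 bases. Aligned to each other they were identical at 142 of 228 aligned bases (62.3%). The RefSeq table held 21 of the 39 genes. An AP-1 match lay in the 250 bases upstream of 8 of them (38.1%), namely Krt13, Krtdap, Sbsn, Ivl, Sprr1a, Sprr1b, Emp1 and Prdm1, against 7.82% of all 27025 genes in the table. A TATA box was found in 8 (38.1%) against 8.94%, the C/EBP motif TTGCNNAA in 5 (23.8%) against 10.8%, the KLF motif CACCC in 16 (76.2%) against 54.5%, and the grainyhead motif AACCNGTT in 1 (4.76%), a motif that 540 of all genes held. One CACCC match in the Sprr1a sequence overlapped an AP-1 match. These are matches of letters, not measured binding.

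The genes of the desmosomal plaque and the membrane proteins all reached 10 CPM, 4 of 4 in each list, whereas none of the 4 envelope crosslinkers and plakins did. Of the 39 genes, 22 reached 10 CPM and 10 reached 100 CPM, while 5 had fewer than 20 UMIs in all cells together. A UMI was found in at least 5% of thinned cells for 14 of the 39. For scale, 26.2% of all 32287 features reached 10 CPM, 20908 had at least 1 UMI and 14224 had at least 20. The shares of all features at 100 CPM or in 5% of thinned cells were not counted. Cnfn (cornifelin, a cornified envelope protein) and Dsg1a (desmoglein 1, a cadherin of the upper layers) had 0 UMIs. Read as up to 3 UMIs or 3 cells, this allows up to 0.0660 CPM and a UMI in up to 0.0201% of cells. Krt1 had 2 UMIs, the transglutaminase Tgm3 had 4, and Calml3, a calmodulin-like protein of differentiating epithelium, had 17.

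**Figure D1:**
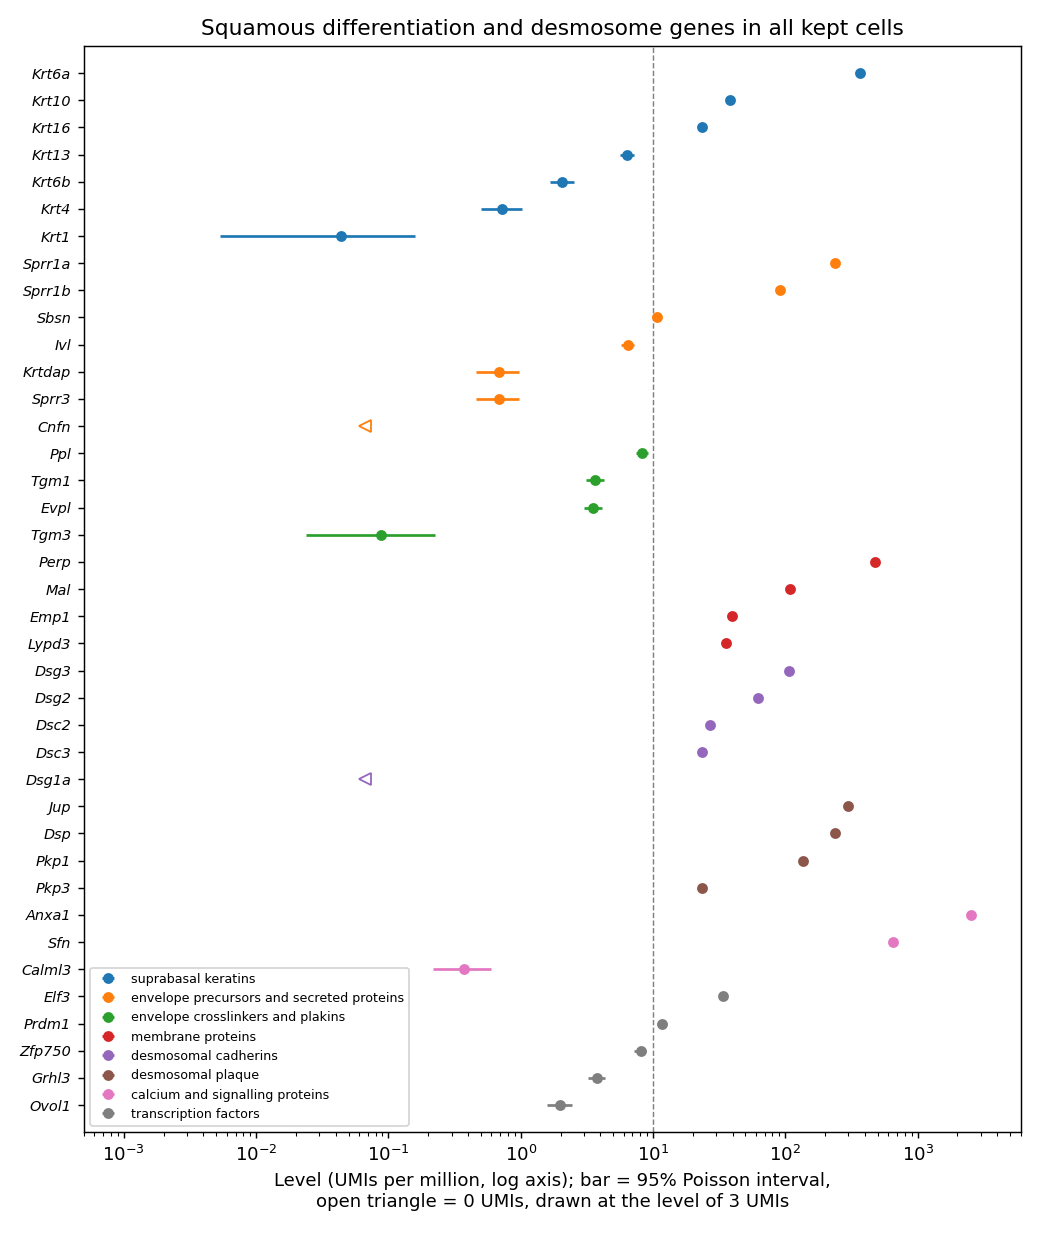
Level of each of the 39 genes over the 14925 kept cells, in CPM on a log axis, grouped and coloured by role, with 95% Poisson intervals; open triangles mark Cnfn and Dsg1a at 0 UMIs and the dashed line marks 10 CPM. Desmosomal plaque and membrane genes lie right of the line, the envelope crosslinkers left of it, and Anxa1 is the highest at 2557 CPM.

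Positions are from GENCODE M21 on GRCm38, where the genes given here lie on the minus strand: Krt13 spans chr11:100117327-100121566, Krt6a chr15:101689910-101694307, Sprr1a chr3:92483952-92485895 and Sprr1b chr3:92436809-92438789. Among the keratins, Krt6a was the most abundant at 370 CPM (364 to 375) and had a UMI in 33.0% of thinned cells. Krt10 followed at 38.4 CPM and Krt16 at 23.7 CPM. The esophageal pair was low: Krt13 reached 6.38 CPM (5.67 to 7.16) and Krt4 0.726 CPM, and Krt6b 2.07 CPM. Krt10 was present without its usual partner, since Krt1 stood at 0.0440 CPM. Krt16 is uncertain, because 16.9% of the 50-base words in the last 500 bases of its transcript also occur in Krt14, Krt17 or the gene Gm11597.

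The envelope precursors split in the same way. Sprr1a stood at 239 CPM (234 to 243) and Sprr1b at 91.0 CPM (88.2 to 93.8), whereas Sprr3, another small proline-rich gene nearby on chromosome 3, was at 0.682 CPM. Involucrin (Ivl), an early envelope scaffold, was at 6.43 CPM, suprabasin (Sbsn) at 10.7 CPM and the secreted keratinocyte protein Krtdap at 0.682 CPM. Sbsn shares 25.9% of its 3′ words with the overlapping gene Tmem147os and is uncertain too. Of the proteins that seal the envelope, none reached 10 CPM: Tgm1, its main transglutaminase, was at 3.65 CPM, periplakin (Ppl) at 8.32 CPM and envoplakin (Evpl) at 3.52 CPM.

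Nearly the whole desmosome was present. Plakoglobin (Jup) stood at 301 CPM, desmoplakin (Dsp) at 238 CPM, plakophilin 1 (Pkp1) at 137 CPM (133 to 140) and plakophilin 3 (Pkp3) at 23.5 CPM. Of the cadherins, Dsg3, a desmoglein of the lower squamous layers, was at 106 CPM, Dsg2 at 62.6 CPM, Dsc2 at 26.8 CPM and Dsc3 at 23.3 CPM. The missing cadherins were those of the upper layers: beside Dsg1a, Dsg1b had 1 UMI, Dsg1c 0, Dsc1 2 and Dsg4 2. Perp, a desmosomal membrane protein that is also a target of p53, was at 477 CPM in these cells, which are labelled as lacking Trp53.

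The remaining membrane and signalling genes were abundant. Anxa1 (annexin A1, a calcium-dependent membrane-binding protein) was found in 86.8% of thinned cells. Sfn (14-3-3 sigma, a regulator of keratinocyte growth) was at 648 CPM, the raft protein Mal at 109 CPM, Emp1 at 39.7 CPM and Lypd3 at 35.7 CPM. The transcription factors that drive differentiation were lower: Elf3 33.6 CPM, Prdm1 11.8 CPM, Zfp750 8.05 CPM, Grhl3 3.76 CPM and Ovol1 1.98 CPM.

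Among the 121 related genes, 33 reached 10 CPM and 29 had 0 UMIs. For scale, 26.2% of all 32287 features reached 10 CPM, 20908 had at least 1 UMI and 14224 had at least 20. The share of the related genes at 10 CPM was thus close to that of all features, and many features of any kind had 0 UMIs. Of 46 further envelope genes, 18 had 0 UMIs and 34 fewer than 20, and 4 reached 10 CPM: Sprr2a3 (314 CPM), Ecm1 (286 CPM), Sprr2d (33.5 CPM) and Cysrt1 (12.5 CPM). Sprr2a3 shares 63.4% of its 3′ words with Sprr2a1, Sprr2a2 and Sprr2b, so its level stands for the group. Flg2, Hrnr, Rptn and Crnn, the large S100-fused proteins of the outer layers, had 0 UMIs and Flg 2. Lor (loricrin, a late envelope protein) had 208 UMIs, or 4.58 CPM. Of 10 further suprabasal keratins 1 reached 10 CPM, Krt80 at 11.7 CPM, with Krt2 and Krt78 at 0 UMIs. Upstream regulators were better represented, with 13 of 18 at 10 CPM or more, among them Cebpb at 356 CPM, Ehf at 217 CPM and Klf4 with 4319 UMIs. In the barrier, protease and lipid list, 13 of 41 did so, led by the protease inhibitor Cstb at 1458 CPM, the surface antigen Ly6d at 957 CPM, S100a14 at 680 CPM, the tight junction protein Cldn4 at 450 CPM and Spink5 at 265 CPM. The others among the 12 highest were S100a16 at 245 CPM, Serpinb5 at 230 CPM and Anxa8 at 142 CPM.

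Next, the cells that held these transcripts were compared by cluster. A gene was counted as different between 2 sets of cells when the ratio was at least 2, the higher level at least 10 CPM and the higher set held at least 20 UMIs, among genes with at least 20 UMIs in both sets together. In the 7 clusters of at least 500 cells, 34 members had 20 UMIs or more, and 17 of these were highest in cluster 5, as were 10.8% of all genes with 20 UMIs. For 13 of the 17 the interval was clear of the next cluster, as for 2.77% of all genes. Cluster 6 was highest for 5 members (8.15% of all genes), cluster 4 for 3 (18.6%), cluster 7 for 2 (39.8%), and clusters 1, 2 and 3 together for the other 7 (22.6%).

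**Figure D2:**
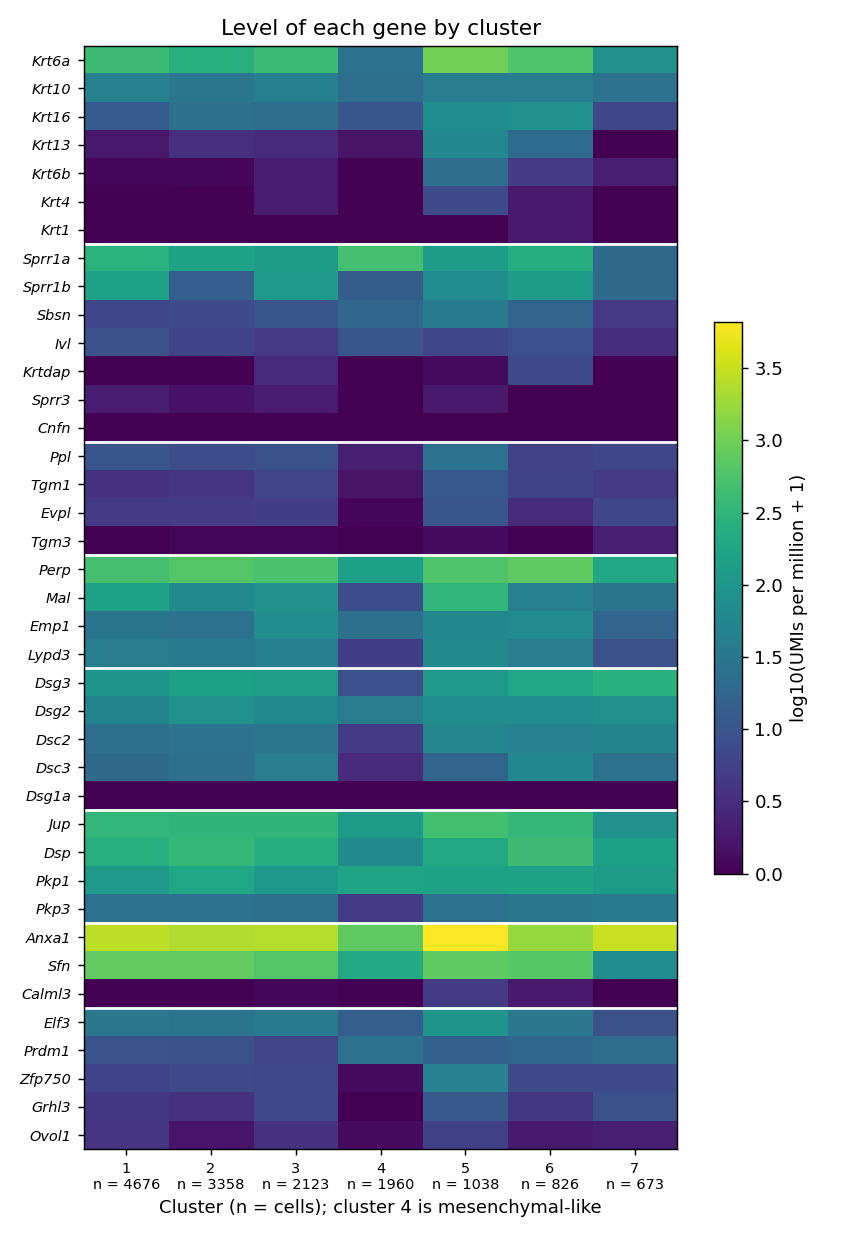
Level of each gene (rows, grouped by role with white lines between groups) in the 7 clusters of at least 500 cells (columns, n = cells), coloured by log10(CPM + 1). Krt13, Krt6b, Krt4 and Zfp750 are bright in cluster 5, the mesenchymal-like cluster 4 is dark for most rows but brightest for Sprr1a at 473 CPM, and Cnfn and Dsg1a are dark throughout.

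Cluster 5 (1038 cells, 6.95% of cells) was led by Ltf, Gabrp, Lcn2, Il33 and Aldh1a3. Against all other cells, 13 of 34 members were at least 2-fold higher in it and 0 lower, where 2.45% and 4.23% of all genes met the rule. The clusters were formed on the same cells, so this is a description of where the genes lie. The median ratio was 1.75 over the members and 0.956 over all genes.

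Krt13 and Krt6b had the highest ratios among the 13. Krt13 was at 58.9 CPM in cluster 5 and 2.23 CPM elsewhere, a ratio of 26.4 (20.5 to 34.1), and Krt6b at 22.2 against 0.475 CPM, a ratio of 46.8 (28.3 to 81.0). Cluster 5 held 196 of the 290 Krt13 UMIs and 74 of the 94 Krt6b UMIs. Few of its cells held them: 4.56% of thinned cluster 5 cells had a Krt13 UMI and 1.62% a Krt6b UMI. Krt4 had 22 of its 33 UMIs there, at 6.61 CPM, under the 10 CPM minimum. Krt6a was 3.23-fold and Krt16 3.77-fold higher, and Krt10 stood at 40.9 against 38.2 CPM. Of the 5 transcription factors, 3 met the rule in cluster 5, Zfp750, Elf3 and Grhl3, and Prdm1 (14.4 against 11.5 CPM) and Ovol1 (4.21 against 1.80 CPM) did not. Zfp750, a factor needed for terminal epidermal differentiation, was at 48.1 CPM against 4.89 CPM elsewhere, and Elf3 at 96.5 against 28.7 CPM.

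The other members above the rule in cluster 5 were Mal (323 CPM, 3.51-fold), Anxa1 (6624 CPM, 2.96-fold), Sbsn (36.1 CPM, 4.14-fold), Ppl (25.8 CPM, 3.73-fold), Dsc2 (53.5 CPM, 2.16-fold), Tgm1 (10.2 CPM, 3.26-fold) and Grhl3 (10.8 CPM, 3.38-fold). Tgm1 and Grhl3 lie just above 10 CPM on 34 and 36 UMIs, and Tgm1 fell under the rule in every other cell filter and clustering tried. Involucrin did not follow, with 5.41 CPM in cluster 5 and 7.79 CPM in cluster 1, nor did Sprr1a, with 129 CPM. Of 57 related genes with enough UMIs, 16 were higher and 0 lower, among them Sprr2d (330 against 10.1 CPM), S100a9 (32.8 against 0.760 CPM), Ly6d (4906 against 645 CPM), Ecm1 (1055 against 225 CPM) and Tmprss11d (12.3 against 1.28 CPM). Of the 8 simple epithelial markers 5 were raised in cluster 5. Krt8 was at 308 CPM and Krt18 at 555 CPM there, and their part in the result was not tested. The count of 13 fell to 8 when the members and related genes were kept among the clustering features, and Krt6b then had a ratio of 2.57. Over the other clusterings tried the Krt6b ratio lay between 12.1 and 65.9.

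Krt13 was concentrated further still, within few cells. Only 118 cells held a Krt13 UMI, and 33 cells with 3 or more, a group looked at after the values were seen, held 65.2% of all Krt13 UMIs. Of these 33 cells 27 lay in cluster 5, 4 in cluster 6 and 1 each in clusters 1 and 3, and their median depth was 2521 UMIs. Krt14 stood at 4239 CPM in them against 1140 CPM in the other cells, Krt5 at 1881 against 626 CPM, and Krt15, a keratin of basal progenitors, at 360 against 3.20 CPM, on 31 UMIs in 18.2% of the 33 cells. Trp63, the basal transcription factor p63, stood at 81.3 against 141 CPM (ratio 0.576, 0.231 to 1.19). Krt16 (592 CPM), Krt6a (1986 CPM) and Ly6d (10859 CPM) were high as well. Other differentiation genes were raised too: Krt4 (116 against 0.507 CPM, on 10 UMIs), Krt6b (186 against 1.72 CPM), Sprr2d (523 against 32.6 CPM) and Elf3 (197 against 33.3 CPM). Sbsn (92.9 against 10.6 CPM), Zfp750 (58.1 against 7.96 CPM), Sprr3 and Calml3 were higher on 8, 5, 3 and 4 UMIs. Several of these values come from few of the 33 cells. Krt6b was found in 18.2% of them, Sbsn in 15.2%, Krt4 and Zfp750 in 12.1% each, Calml3 in 6.06% and Sprr3 in 3.03%. Sprr1a, Sprr1b and Krt10 had ratios of 0.875, 0.893 and 0.605, with intervals that included equality. Sprr1b had 7 UMIs in 3.03% of the 33 cells, and Krt10 had 2 UMIs in 6.06%. Ivl, Krtdap, Tgm1, Grhl3, Krt1 and Cnfn had 0 UMIs in the 33 cells. Read as up to 3 UMIs, this allows up to 34.8 CPM for each in these cells. That is above the level of Ivl over all cells (6.43 CPM), so a lower level was not detectable at this depth. Thinned epithelial cells with a Krt13 UMI held Krt16 in 37.3% of cases (26.4% to 49.3%, 75 cells), against 3.21% of those without.

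Krt13 was higher in epithelial cells with more basal keratin, which is not separate from the result above. The 33 cells rich in Krt14 and Krt5 held 65.2% of all Krt13 UMIs, and the split was not repeated without them. When thinned epithelial cells were divided by the sum of Krt5, Krt14 and Krt15 UMIs, 2551 cells held 5 or more and 5484 held 2 or fewer. These are ranges of a level, not cell types. With more basal keratin, 4 of 31 members were at least 2-fold higher and 0 lower, where 0.361% and 0.386% of all genes met the rule. Krt13 was at 30.6 against 2.07 CPM, Krt16 at 82.3 against 12.5 CPM, Krt6a at 742 against 289 CPM and Dsc3 (desmocollin 3) at 46.3 against 19.1 CPM. The middle range of 3 or 4 UMIs lay between them, with Krt13 at 4.41 CPM on 21 UMIs. The 3 members other than Dsc3 are keratins like those that made the split, and Krt16 shares 3′ sequence with Krt14.

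Cluster 6 (826 cells, led by Sncg, Fst and Sema3d) had the most Krt14, 2605 CPM. There 3 of 34 members were at least 2-fold higher and 1 lower, where 0.682% and 2.59% of all genes met the rule: Krt16 at 84.7 CPM, Dsc3 at 60.3 CPM and Krt13 at 20.8 CPM were higher, and Mal at 45.3 CPM was lower. Krtdap had 15 of its 31 UMIs there and 15 in cluster 3. Cluster 6 was also highest for Dsp (418 CPM) and Perp (753 CPM).

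The cycling-like cluster 3 retained the junction genes. In it 2 members were at least 2-fold higher and 2 lower, where 3.42% and 2.05% of all genes met the rule: Emp1 (73.0 CPM) and Dsc3 (39.9 CPM) were higher, Sprr1a (118 CPM) and Prdm1 (5.23 CPM) lower. Splitting the epithelial cells by cycling markers instead, 1593 thinned cells with 3 or more such UMIs were compared with 7819 that had none. Emp1 was higher with cycling UMIs (74.1 against 33.8 CPM), and Krt13 (2.93 against 11.2 CPM), Sprr1a (105 against 223 CPM) and Zfp750 (4.60 against 10.2 CPM) were lower, 1 and 3 of 31 members, where 4.69% and 1.64% of all genes met the rule. Emp1, Zfp750 and Sprr1a did not meet it when 1 cycling UMI was enough, at ratios of 1.79, 0.672 and 0.720, nor did Zfp750 and Sprr1a when cells were thinned to 1000 UMIs. Dsp, Jup, Dsg3 and the other desmosome genes met it in neither direction.

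Clusters 1, 2 and 7 held few members above the rest. In cluster 1 (4676 cells, led by Prl2c3 and Prl2c2) 1 member was at least 2-fold higher and 2 lower, where 0.359% and 3.66% of all genes met the rule: Sprr1b at 155 CPM was higher, and Krt16 (11.8 CPM) and Sbsn (5.66 CPM) lower. In cluster 2 (3358 cells, led by Krt7 and Sorbs2) 0 members were higher and 1 lower, Sprr1b at 12.8 CPM, where 0.598% and 2.58% of all genes met the rule. In the shallow cluster 7, 1 member was higher and 12 were lower, where 19.0% and 19.1% of all genes met the rule. The member that was higher there was Dsg3, at 269 CPM (2.61-fold). The mesenchymal-like cluster 4, against all other cells, had 2 members higher and 15 lower, where 6.59% and 6.55% of all genes met the rule.

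Epithelial clusters and mesenchymal-like cells were compared to show which of the genes mark the epithelial state. Of 34 members, 15 were at least 2-fold higher in the epithelial clusters, where 6.35% of all genes were, and 2 in the mesenchymal-like cells, where 6.70% were. The other 17 met the rule in neither direction. The median ratio was 4.10 over the members and 1.05 over all genes.

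**Figure D3:**
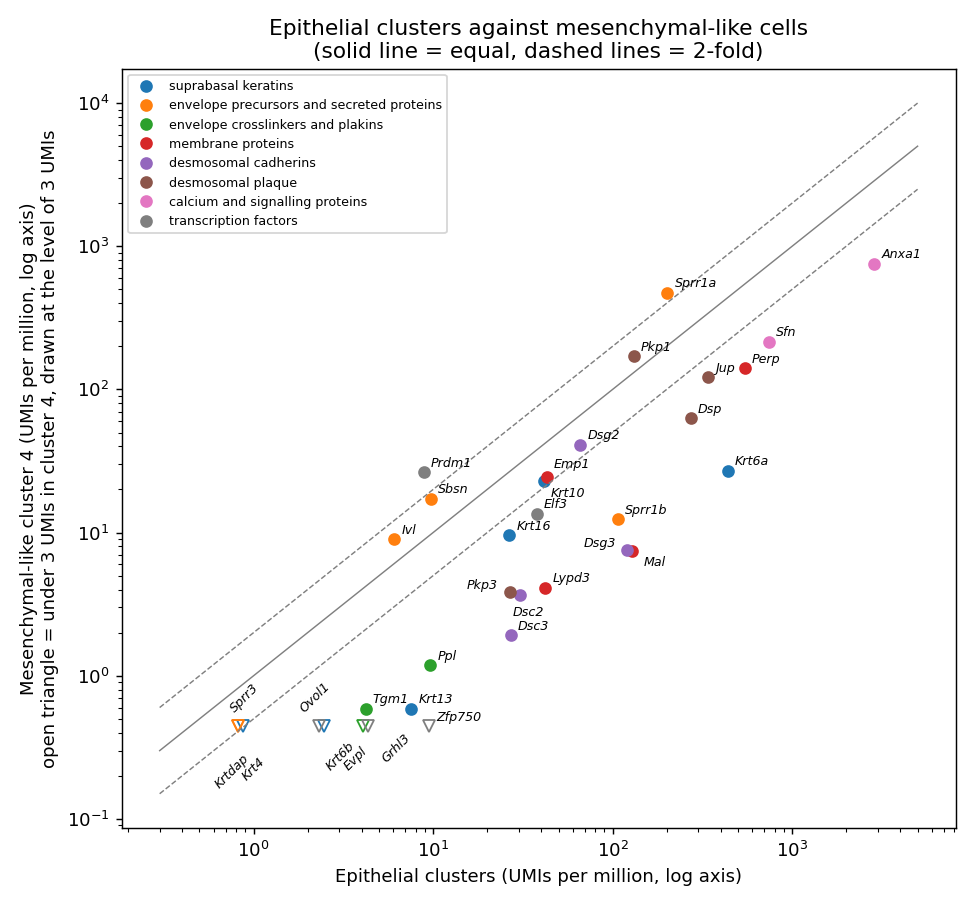
Level of the 34 members with at least 20 UMIs in the epithelial clusters (x axis) and in the mesenchymal-like cluster 4 (y axis), in CPM on log axes, coloured by role; the solid line marks equal levels and dashed lines 2-fold. Most genes lie below the lines, and Sprr1a and Prdm1 lie above them at 473 and 26.4 CPM in cluster 4.

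The desmosome did not fall as a unit. Dsg3 was at 120 CPM in the epithelial clusters and 7.53 CPM in the mesenchymal-like cells, a ratio with an interval of 12.1 to 21.5, and Dsc3 had a ratio of 14.1 (8.22 to 26.6). Dsc2 (8.25), Pkp3 (6.95), Dsp (4.31) and Jup (2.78) followed. Pkp1, in contrast, was at 131 CPM in the epithelial clusters and 170 CPM in the mesenchymal-like cells (ratio 0.768, 0.720 to 0.820), and Dsg2 at 65.9 and 41.0 CPM (ratio 1.61, 1.42 to 1.83). Pkp1 had a UMI in 22.2% of thinned mesenchymal-like cells, against 0.831% for Dsg3 and 0.883% for Mal. Other epithelial transcripts were counted in these cells too, Epcam at 79.1 CPM and Krt5 at 49.4 CPM. How much of the low levels came from RNA free in the cell suspension was not tested.

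Of the differentiation genes, Krt6a (16.2-fold), Mal (17.5-fold), Lypd3 (10.2-fold), Sprr1b (8.61-fold), Perp (3.88-fold), Anxa1 (3.81-fold), Sfn (3.43-fold), Elf3 (2.79-fold) and Krt16 (2.78-fold) were higher in the epithelial clusters. Of the 65 Krt16 UMIs in mesenchymal-like cells, 38 came from 1 cell. Low genes such as Zfp750 (358 against 2 UMIs), Evpl (154 against 1) and Grhl3 (164 against 0) stayed under the 10 CPM minimum. Leaving out mesenchymal-like cells with an Epcam or Cdh1 UMI gave the same counts, 15 and 2, where 7.12% and 7.32% of all genes met the rule, and larger ratios, to 94.8 for Krt6a, 90.8 for Mal, 48.3 for Dsg3, 46.2 for Sprr1b and 8.32 for Krt16. Krt10 (41.4 against 23.0 CPM), Ivl (229 against 61 UMIs, ratio 0.673) and Sbsn (9.72 against 17.3 CPM) were not 2-fold higher in the epithelial clusters than in the mesenchymal-like cells.

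Prdm1, which encodes the repressor Blimp1, was 2.98-fold higher in mesenchymal-like cells (26.4 against 8.87 CPM). The small epithelial cluster 10 (65 cells) had more Prdm1, 72.8 CPM (34.9 to 134), on 10 UMIs. Among the related genes 24 of 57 were higher in the epithelial clusters and 2 in the mesenchymal-like cells, the latter being Gjb2, which encodes connexin 26 (19.2 CPM), and Cebpb (635 CPM). Ly6d, Cldn4, S100a14, Serpinb5, Ehf and Spink5 were among the 24.

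Sprr1a parted from Sprr1b. It was at 473 CPM in the mesenchymal-like cells and 202 CPM in the epithelial clusters, 2.34-fold higher (2.24 to 2.44), and the value was 474 CPM without the cells holding Epcam or Cdh1 UMIs. By cluster Sprr1a stood at 276 CPM in cluster 1, 160 in cluster 2, 118 in cluster 3, 129 in cluster 5, 237 in cluster 6 and 19.9 in cluster 7. Sprr1b was at 155, 12.8, 115, 70.0, 127 and 19.9 CPM in the same clusters, and at 12.4 CPM in the mesenchymal-like cells. There were 38.1 Sprr1a UMIs for each Sprr1b UMI in mesenchymal-like cells and 12.6 in cluster 2, against 1.03 to 1.86 in clusters 1, 3, 5 and 6. High Sprr1a was not particular to the mesenchymal-like cells. The small epithelial cluster 10 (65 cells) had 597 CPM (475 to 741), on 82 UMIs, of which 32 came from 1 cell. It held 9 Sprr1b UMIs. The 3′ words of the genes do not overlap (0% shared), so the reads can be told apart.

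**Figure D4:**
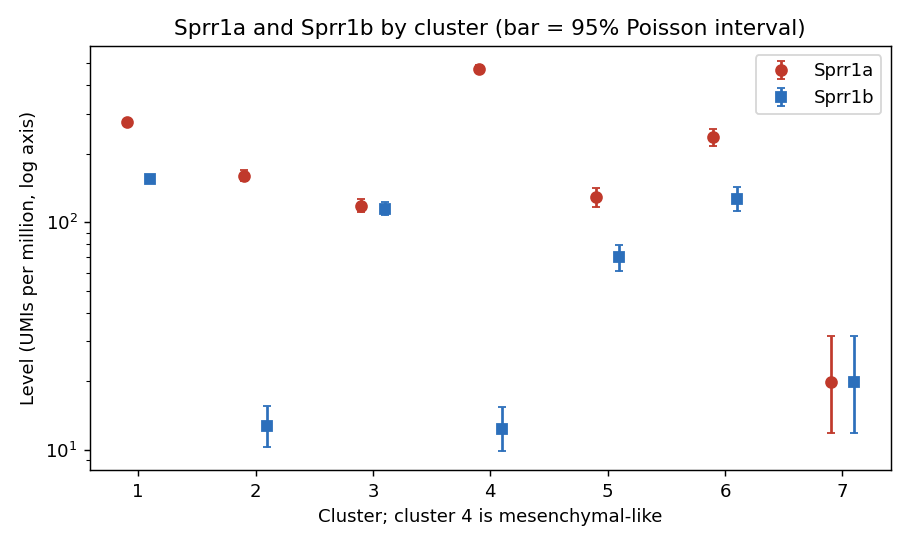
Levels of Sprr1a (circles) and Sprr1b (squares) in the 7 clusters of at least 500 cells, in CPM on a log axis with 95% Poisson intervals. The genes lie close together in clusters 1, 3, 5, 6 and 7 and far apart in clusters 2 and 4.

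Sprr1a was also uneven within clusters. Among thinned mesenchymal-like cells 18.2% held a UMI, against 20.9% in cluster 1. The 10% of cells with most held 82.3% of the Sprr1a UMIs of the mesenchymal-like cells, within the range of the other 5 clusters examined, from 68.3% in cluster 1 to 88.7% in cluster 2. The most in 1 cell was 158, in a mesenchymal-like cell. Mesenchymal-like cells with 2 or more Sprr1a UMIs (212 cells, looked at after the values were seen) and those with none had Vim at 1009 and 1069 CPM (ratio 0.945, 0.838 to 1.06), and Epcam was at 81.8 and 52.1 CPM, a ratio of 1.57 (0.986 to 2.41). In 5 of the 6 clusters examined Sprr1b was higher in cells with 2 or more Sprr1a UMIs than in those with none, 2.42-fold in cluster 1 (2.06 to 2.84), 6.54-fold in cluster 3 (4.84 to 8.72), 6.25-fold in cluster 6 (4.23 to 9.14) 5.64-fold in cluster 2 (2.46 to 11.8) and 4.72-fold in cluster 4 (1.55 to 13.3, on 7 and 11 UMIs). In cluster 5 the interval included equality (ratio 1.46, 0.384 to 3.92). Mal stood at 140 and 142 CPM in cluster 1 cells with and without Sprr1a (ratio 0.986, 0.781 to 1.23). Ly6d was lower with Sprr1a in clusters 1, 2, 4 and 6, as in cluster 1 (646 against 1043 CPM), and higher in cluster 5 (ratio 1.26, 1.13 to 1.40).

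The number of suprabasal genes per cell was counted over a set of 15, namely Krt13, Krt4, Krt1, Krt10, Krtdap, Sbsn, Ivl, Sprr3, Sprr1a, Sprr1b, Cnfn, Tgm1, Tgm3, Lypd3 and Mal. At 1500 UMIs per cell, 59.5% of cells held none of them, 30.1% held 1, 8.82% held 2 and 1.54% (1.34% to 1.77%) held 3 or more. At 1000 UMIs per cell the last share was 0.590%. The most in any cell was 6, in 1 cell. The set includes Sprr1a, Krt10, Ivl and Sbsn, which were not 2-fold higher in epithelial clusters. Without these 4, an alternative chosen after seeing the data, 0.181% of cells (0.116% to 0.269%, 24 cells) held 3 or more of the other 11. At least 1 of the 15 was found in 43.2% of thinned cells in the epithelial clusters and 25.9% of mesenchymal-like cells. For the 11 the shares were 29.7% and 2.60%. The 4 genes were left out by a comparison of these same cells, so the wider gap is not a separate result. Cells with 3 or more made up 2.69% of cluster 1, 2.94% of cluster 5, 1.71% of cluster 6, 1.15% of cluster 3, 0.437% of cluster 2 and 0.104% of the mesenchymal-like cells. Clusters 1 and 5 overlapped in their intervals.

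**Figure D5:**
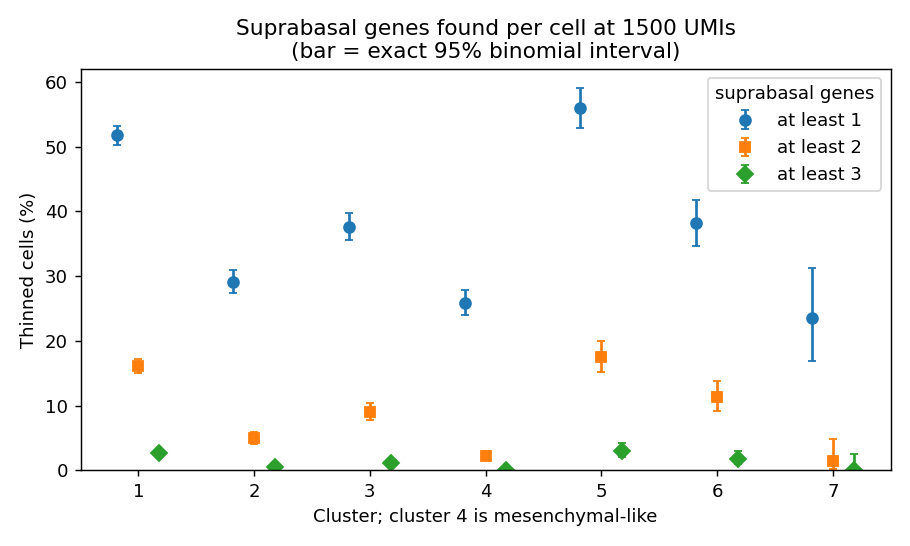
Share of cells, thinned to 1500 UMIs, with at least 1, 2 or 3 of the 15 suprabasal genes in each of the 7 clusters of at least 500 cells, with exact 95% binomial intervals. Clusters 1 and 5 have the highest shares, and the mesenchymal-like cluster 4 has 2 cells of 1925 with 3 or more.

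The 205 cells with 3 or more mostly held the most abundant genes of the set. Abundant genes are the likeliest to be counted in a thinned cell, so this make-up does not show a stage of differentiation. Sprr1a was present in 78.5% of the 205 cells, Sprr1b in 69.8%, Mal in 64.4%, Krt10 in 38.5% and Lypd3 in 34.1%. Krt13 was present in 5.37%, Ivl in 4.88% and Tgm1 in 3.90%, and Krtdap, Cnfn, Krt1 and Tgm3 in 0 of 205. Of the 205, 124 lay in cluster 1, 29 in cluster 5 and 24 in cluster 3.

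Genes outside the set were then compared between epithelial cells with 3 or more suprabasal genes (203 cells) and epithelial cells with none (6370 cells). Of all genes 0.172% were at least 2-fold higher and 3.54% lower. These 2 shares cannot be set against each other. The minimum of 20 UMIs equals 65.7 CPM in the 203 cells, while a gene could count as lower from 10 CPM in the 6370. Psca, a surface antigen of squamous and urothelial cells, was highest by ratio at 98.5 against 7.43 CPM, 13.3-fold (8.35 to 20.6). It was followed by Adam28 (6.81-fold), the retinaldehyde dehydrogenase Aldh1a3 (5.96-fold), AA467197 (4.99-fold), Plac8 (4.22-fold), the alarmin Il33 (4.13-fold), Sprr2d (3.69-fold), Krt19 (3.51-fold), Gsto1 (3.39-fold), Gabrp (3.13-fold), Kit (2.66-fold) and Dynap (2.49-fold). Il33, Aldh1a3, Gabrp, Krt19 and Gsto1 are also among the leading genes of cluster 5. The 2 sets differ in cluster make-up, and the ratios were not taken within clusters. Cluster 1 gave 124 of the cells with 3 or more, cluster 5 gave 29 and cluster 2 gave 11. Of the cells with none, 2228 were in cluster 1, 434 in cluster 5 and 1786 in cluster 2. Lower were the mitotic kinase Cdk1 (16.4 against 93.2 CPM, ratio 0.176), Edn1 (ratio 0.247) and Acta2 (ratio 0.261), among others. Of 20 members outside the set with enough UMIs, 1 met the rule, Krt16 at 82.1 against 25.4 CPM, and no desmosome member did. A member under 65.7 CPM in the 203 cells could not be called higher, and Krt16 shares 3′ sequence with Krt14. Against all cells with none, mesenchymal-like cells included, Psca was 16.3-fold higher, Krt6a met the rule as well at 2.36-fold, and Vim was lower (ratio 0.0485), where 0.280% of all genes were higher and 4.51% lower. The UMI minimum limited the genes called higher there too.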

How the data were processed

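The deposited matrix holds whole-number UMI counts per gene and barcode, written by Cell Ranger 8.0.1 per the file headers. The submitters' processing notes name the build mm10 and Scanpy 1.8.2. The annotation is not given in the sources used here, and the matrix does not say which of the 3 libraries supplied its reads, so it was treated as 1 sample. All 39 genes matched GENCODE M21 (GRCm38). No barcode occurred more than once.

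Scanpy 1.11.5 and igraph 0.11.9 clustered the cells (counts scaled to 10000 and logged, 2000 variable genes, 30 components, 15 neighbours, resolution 0.6). The members, the related genes, GFP and Scar were held out. Scrublet called 1 of 14925 cells, too few for a working call, so doublets were not removed. Thinning left out 1644 shallower cells, which cluster 7 held in part (145 of its 673 cells reached the depth). Shares have exact (Clopper-Pearson) 95% intervals, ratios an exact binomial interval on the split of UMIs, and a count of 0 is read as up to 3. A cluster was called like a cell type with 3 markers raised 1.5-fold and 2 among its 10 leading genes, and epithelial with Epcam in 50% of cells.

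Named were all 39 members, related genes among the 12 highest or past the rule in a comparison, and the 12 other genes with the largest ratio at 50 CPM or more in the split by suprabasal genes, of which examples are given, and a few related genes with 0 or few UMIs. The members and lists were chosen with earlier results of these data known. The 500-cell minimum for clusters, the motifs, the sequences shown, and the groups by Krt13 or Sprr1a UMIs were chosen after values were seen. The fold rule was tested on simulated counts. Alternatives covered cell filters, doublet scores, thinning depth, clustering, fold and UMI minimum.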

Additional observations from a re-analysis of the deposited data

How the results depend on the processing

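The number of members at 10 CPM or more was 22 under all 6 alternatives tried (3 other cell filters, doublet scores, GFP and Scar left out of the total, and cluster 7 left out). The count of members higher in epithelial clusters ranged from 12 to 18 around 15, and no ratio changed direction past the rule. With a fold of 3, 0 members were higher in mesenchymal-like cells in place of 2, since Sprr1a and Prdm1 had ratios of 0.428 and 0.336. The count for cluster 5 ranged from 8 to 16 around 13, with 8 when members and related genes were kept among the features, and with a fold of 1.5 it had 1 lower member, Sprr1a, in place of 0. With 1 or more cycling UMIs in place of 3 or more, 0 members were higher and 1 lower, in place of 1 and 3. The share of cells with 3 or more suprabasal genes was 0.590% at 1000 UMIs per cell, 1.81% over the epithelial clusters alone, an alternative chosen after seeing the data, 0.181% without Sprr1a, Krt10, Ivl and Sbsn, also chosen after seeing the data, and 10.4% when 2 genes were enough, in place of 1.54%. In each case the alternative itself changes what is counted. Members found in at least 5% of thinned cells numbered 14 at 1500 UMIs and 12 at 1000, a threshold set after the values were seen. Depth limits all statements of absence: at a median of 2955 UMIs per cell, a low transcript is missed in most cells that hold it. No paired analysis was possible because the labels give 1 culture and 1 matrix, and the 3 libraries share only the number of a single replicate.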
